A study of Mus musculus with 29 samples.

Results

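The respiratory chain genes described here are the subunits of complexes I to V and the assembly factors whose gene symbols share a subunit prefix, measured in the livers of 29 male C57BL/6 mice by 3′ mRNA sequencing. Members were chosen by symbol alone: symbols starting with Ndufa, Ndufb, Ndufc, Ndufs, Ndufv, Uqcr or Atp5, Sdha to Sdhd, Cox4 to Cox8, and the mitochondrial mt-Nd, mt-Co, mt-Cytb and mt-Atp genes, with pseudogenes left out. That rule gave 111 of the 31053 gene identifiers in each table. Of these, 98 are nuclear genes (84 subunits and 14 assembly factors or related genes) and 13 lie on the mitochondrial genome. After a filter on low counts, 103 members were tested, 92 nuclear and 11 mitochondrial. The 8 members left out were mt-Nd4l, mt-Atp8, Ndufa4l2, Cox4i2, Cox7b2, Cox8b, Cox8c and a second identifier of Atp5o; mt-Nd4l, Cox8c and that Atp5o identifier had no read in any library.

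The mice were wild type (WT), PiZ, or PiZ/Chop-/-, each killed at 6 or 36 weeks of age, with 5 animals in each of the 6 groups except WT at 36 weeks, which had 4. The PiZ strain is transgenic for human alpha-1-antitrypsin in its Z form, which misfolds in hepatocytes, the parenchymal cells of the liver. In PiZ/Chop-/- mice the transgene is combined with a deletion of Chop, a transcription factor of the unfolded protein response encoded by Ddit3. There was no group with the Chop deletion and no transgene. The labels do not give the promoter of the transgene, whether Chop is deleted in every cell, or which animals were littermates.

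The respiratory chain oxidises NADH at complex I and succinate at complex II, passes electrons through ubiquinone, complex III and cytochrome c to oxygen at complex IV, and stores the energy as a proton gradient that complex V, the ATP synthase, uses to make ATP. Complexes I, III, IV and V are built from products of both genomes, while complex II is entirely nuclear. The mitochondrial members are cut from long polycistronic transcripts of the circular genome, and the nuclear members are transcribed gene by gene. Hepatocytes are rich in mitochondria. Several subunits of complex IV exist as pairs encoded by different genes, a widely expressed form and a form of heart and skeletal muscle.

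Reads that align to more than 1 place were not assigned to a gene, and 3′ sequencing reads mostly the ends of transcripts, so the 3′ ends of the members were searched for copies in other annotated genes. A block of unprocessed pseudogenes on chromosome 1 of GRCm38 holds copies of mt-Co1, mt-Co2, mt-Co3, mt-Atp6, mt-Nd3 and mt-Nd4l that are identical over at least 80 bases at the 3′ ends of those genes (the last 300 bases of each GENCODE M21 transcript were searched, or the whole transcript where shorter). A stretch of 60 bases at the 3′ end of mt-Co2, which leaves out the final 3 bases of the gene (complex IV, chrM:7634-7693, plus strand), is identical in the pseudogene Gm28661 (chr1:24614885-24615565, minus strand), while the last 60 bases of mt-Nd2 (complex I, chrM:4892-4951, plus strand) differ from the pseudogene Gm13339 (chr2:22590024-22590533, minus strand) at 3 bases, shown in capitals. Further inside the last 300 bases, mt-Nd2 and Gm13339 share an unbroken run of 129 identical bases. The windows are shown as an example of an identical and of a near-identical end, in genes with few and with many counted reads.
mt-Co2: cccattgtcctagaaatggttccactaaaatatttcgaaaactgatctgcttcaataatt
Gm28661: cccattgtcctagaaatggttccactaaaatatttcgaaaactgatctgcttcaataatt
mt-Nd2: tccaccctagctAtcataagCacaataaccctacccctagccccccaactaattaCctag
Gm13339: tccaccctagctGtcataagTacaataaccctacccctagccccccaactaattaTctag
Over all 29 libraries mt-Co2 had 662 reads, mt-Co3 1003, mt-Atp6 757, mt-Nd3 320 and mt-Nd4l 0. Among the 7 genes that share a run of at least 80 bases with a copy, mt-Co1 and mt-Nd2 had more, 173111 and 2956343 reads. Without such a run, mt-Nd4 had 2998626 reads, mt-Cytb 830668, mt-Nd1 726216, mt-Nd5 192011 and mt-Atp8 82. Read numbers thus did not follow the copies in every gene: mt-Co1 and mt-Nd2 were counted often with a shared run and mt-Atp8 seldom without one, and the part of the copies in these numbers was not tested. The gene mt-Nd6, also without such a run, had 1541 reads and lies on the opposite strand to its neighbours, and the strand setting of the counting is not given in the sources used here, so its reads may include those of genes opposite to it. Levels are therefore compared between groups for each gene and not between mitochondrial genes. Among the 98 nuclear members, 14 also share an unbroken run of at least 80 identical bases with another annotated gene: Ndufb3, Ndufb11, Ndufs3, Ndufs5, Uqcrb, Cox6c, Cox7c, Atp5g1, Atp5g2, Atp5h, Atp5j, Atp5j2, Atp5l and Atp5o. Their levels are uncertain, among them those of Ndufb3, Ndufs3, Cox6c, Atp5h, Atp5j and Atp5j2, which were called in comparisons below.

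Promoter sequences were matched by symbol for 80 of the 98 nuclear members (RefSeq, GRCm38.p6, 250 bases before to 50 after the start). Letters of the site of NRF1, a transcription factor known for its action on respiratory chain genes (GCGC, any base, then TGCGC; both strands), occurred in 21 of the 80 promoters, 26.25%, against 5.188% of 27025 genes. The letters AAGATGGC, as bound by YY1, occurred in 13.75% of members against 3.19% of genes. CCGGAAGT, an ETS-type site, occurred in 6.25% of members against 4.307% of genes. The Chop and Atf4 composite letters TGATGCAAT occurred in 0 members and 0.222% of genes. A match of letters is a description of the sequence and not of binding. The promoter of Cox6a1, the widely expressed partner of the muscle isoform Cox6a2, holds the NRF1 letters at 2 places (capitals, the second read on the other strand; chr5:115348909-115349208, minus strand). The promoter of Ndufa3, an accessory subunit of complex I that differed between genotypes at 6 weeks, holds the YY1 letters (capitals; chr7:3617123-3617422, plus strand).
Cox6a1: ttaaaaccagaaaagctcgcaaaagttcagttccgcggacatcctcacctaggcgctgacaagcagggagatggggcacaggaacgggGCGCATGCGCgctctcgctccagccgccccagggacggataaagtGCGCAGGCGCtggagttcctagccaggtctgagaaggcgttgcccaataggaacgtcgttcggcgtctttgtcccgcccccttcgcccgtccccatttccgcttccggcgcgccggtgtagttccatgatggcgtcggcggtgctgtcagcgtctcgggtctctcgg
Ndufa3: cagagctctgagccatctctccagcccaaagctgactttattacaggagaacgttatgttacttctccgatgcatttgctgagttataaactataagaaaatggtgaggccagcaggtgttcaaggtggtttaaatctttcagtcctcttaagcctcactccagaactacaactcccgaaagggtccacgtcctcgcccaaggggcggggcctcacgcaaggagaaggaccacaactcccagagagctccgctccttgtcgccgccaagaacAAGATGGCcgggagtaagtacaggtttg

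The libraries held 2310208 to 3851983 reads in genes, and levels are given as CPM, counts scaled to a common library size by TMM. A value of 3 counts corresponded to between 0.779 and 1.30 CPM before TMM scaling. The mitochondrial members took 6.65% to 22.4% of the reads in genes and the nuclear members 0.825% to 2.02%. Both extremes, the highest mitochondrial and the lowest nuclear share, belonged to 1 animal, WT replicate 2 at 6 weeks. In that library 43.9% of uniquely aligned reads fell outside genes, and in WT replicate 5 at 6 weeks 31.1%, against 11.95% to 23.4% in the others. Transcripts of 14 skeletal muscle markers summed to 4860 and 5676 CPM in WT replicates 1 and 2 at 6 weeks and to 1552 CPM in PiZ/Chop-/- replicate 3 at 36 weeks, against 1.56 to 438 CPM elsewhere. Hepatocyte markers were detected in every library. Ddit3, the deleted gene, lay between 6.62 and 15.1 CPM in WT and between 81.9 and 104 CPM in PiZ at 6 weeks. In the PiZ/Chop-/- livers of that age it was at 10.7, 1.78, 0, 2.44 and 4.83 CPM, so the library labelled PiZ/Chop-/- replicate 1 lay within the WT range. At 36 weeks it lay between 15.2 and 17.2 CPM in WT, between 33.6 and 64.1 CPM in PiZ and between 2.74 and 6.69 CPM in PiZ/Chop-/-. Without that replicate 1, 8 members were called in PiZ/Chop-/- against PiZ at 6 weeks (9 with it), 13 in PiZ/Chop-/- against WT at 6 weeks (14), 4 between the ages in PiZ/Chop-/- (4) and 1 in the difference between ages (1).

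The nuclear subunits of each complex were summed in every liver. For complex II, the entirely nuclear complex, the 4 subunits (Sdha to Sdhd) summed to 615, 756, 656, 720 and 631 CPM in the 5 PiZ livers at 6 weeks and to 847, 888, 893, 846 and 846 CPM in the 5 PiZ/Chop-/- livers of that age. At 36 weeks the sums were 899, 838, 907 and 905 CPM in WT, 736, 667, 623, 703 and 675 CPM in PiZ, and 610, 701, 670, 734 and 809 CPM in PiZ/Chop-/-. PiZ livers thus lay below PiZ/Chop-/- livers at 6 weeks and below WT livers at 36 weeks, and in both cases no value overlapped. The sums of complexes I, III, IV and V fell into the same order. Complex I subunits summed to 5303 ± 400 CPM (SD, n = 5) in PiZ and 6488 ± 358 CPM (n = 5) in PiZ/Chop-/- at 6 weeks, and to 6357 ± 329 CPM (n = 4) in WT, 5316 ± 267 CPM (n = 5) in PiZ and 5270 ± 574 CPM (n = 5) in PiZ/Chop-/- at 36 weeks. For each of the complexes I to V the PiZ range lay below the PiZ/Chop-/- range at 6 weeks and below the WT range at 36 weeks without overlap. WT livers at 6 weeks could not be placed in this order as a group, because complex II sums were 933, 869 and 782 CPM in replicates 1, 3 and 4 but 256 and 534 CPM in replicates 2 and 5. Sums are descriptions and carry no test. The summed hepatocyte markers moved with them: 51514 to 67353 CPM in PiZ and 68742 to 87739 CPM in PiZ/Chop-/- at 6 weeks, with ranges that did not overlap, and 63995 to 90355 CPM in WT, 53895 to 80037 CPM in PiZ and 51769 to 64444 CPM in PiZ/Chop-/- at 36 weeks. Their part in the result was not tested. In whole liver, fewer hepatocytes and less RNA of these genes per hepatocyte cannot be told apart.

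**Figure D1:**
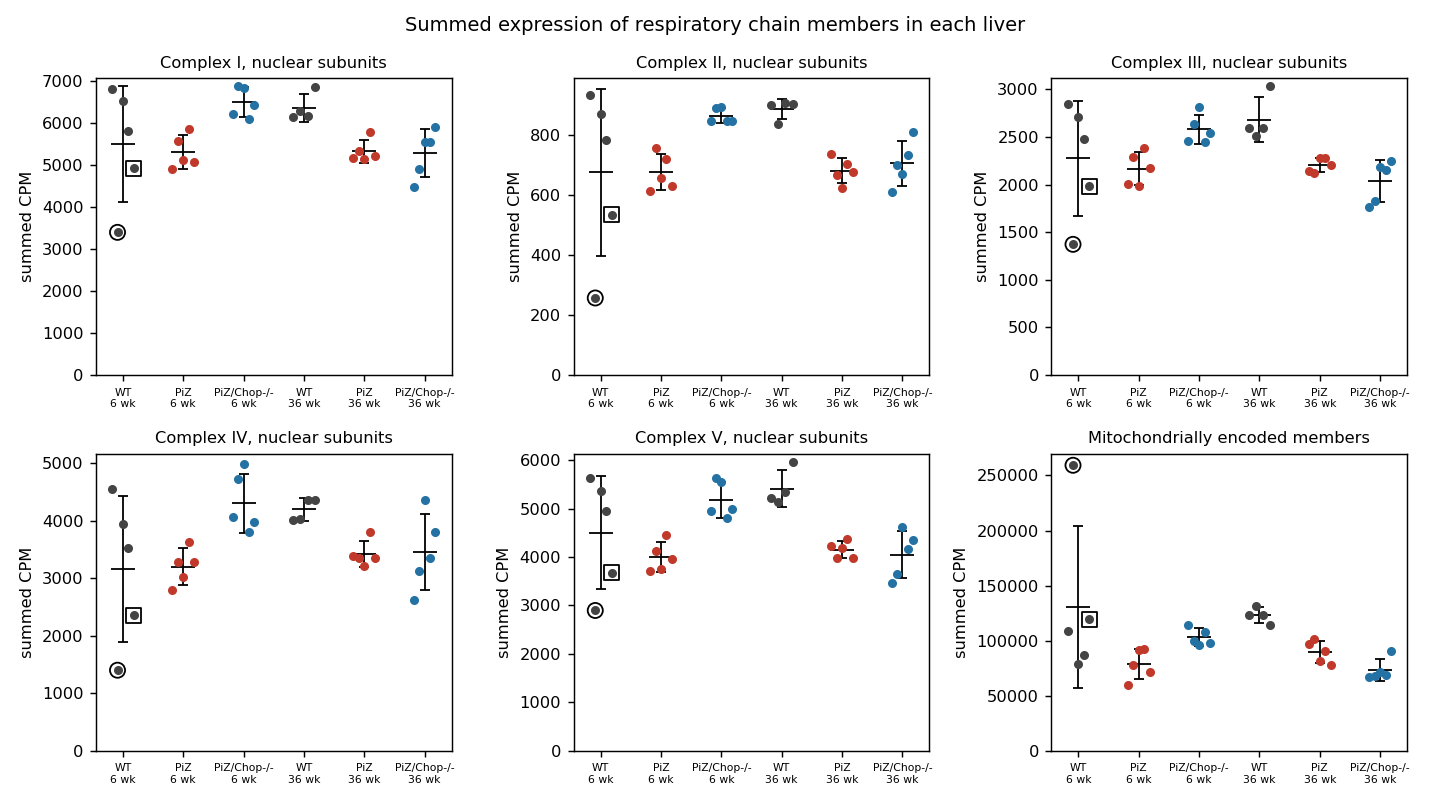
Summed TMM-scaled CPM (vertical axis) of the nuclear subunits of complexes I to V and of all mitochondrially encoded members, 1 point per liver, with mean and SD, in WT (grey), PiZ (red) and PiZ/Chop-/- (blue) livers at 6 and 36 weeks; the ring marks WT replicate 2 and the square WT replicate 5 at 6 weeks. The PiZ points lie below the PiZ/Chop-/- points at 6 weeks and below the WT points at 36 weeks for each nuclear set.

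The comparison of PiZ with WT at 6 weeks asks how the young liver differs when it carries the misfolding protein. Among the 103 tested members, 3 were higher and 16 lower in PiZ by edgeR at an adjusted p below 0.05. In the same comparison 25.8% of all 10877 genes were called, 12.4% higher and 13.3% lower. The 16 lower calls were 8 of the 92 nuclear and 8 of the 11 mitochondrial members, a smaller share than that of all genes for the nuclear members and a greater one for the mitochondrial members, whose calls are described below. The nuclear median was -0.09 on the log2 scale (56 of 92 below 0, 3 called higher and 8 lower) and the median over all genes was -0.03. Called nuclear members came from complexes I, III, IV and V, and the only called gene of complex II was an assembly factor, Sdhaf1. CPM ranges lay lower without overlap for 5 nuclear members (6.53% of all genes) and higher without overlap for 2 (8.29% of all genes). The hepatocyte markers had a median of -0.46 on the log2 scale, 2 of 8 called lower. Macrophage markers were higher in PiZ, 7 of 7 called, at a sum of 98.9 to 238 CPM in WT, 607 to 918 CPM in PiZ and 353 to 650 CPM in PiZ/Chop-/-. Lymphocyte markers summed to 6.98 to 17.6 CPM in WT and 23.3 to 39.2 CPM in PiZ (Cd79a was at 0 in WT, and the 1 marker of 6 that could be tested was called higher). The part of these markers in the values of the subunits was not tested.

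In complex I, Ndufa3 was at 246, 166, 253, 210 and 213 CPM in WT and at 124, 137, 123, 147 and 144 CPM in PiZ. Every PiZ liver lay below every WT liver, and the difference was -0.69 on the log2 scale (SE 0.13, adjusted p = 0.000317 by edgeR). The core subunits that hold its redox centres, Ndufs1 (72.1 ± 15.5 CPM in WT and 56.1 ± 2.29 in PiZ, n = 5 each) and Ndufv1 (252 ± 66.9 and 233 ± 32.1), were not called, at log2 fold changes of -0.36 (SE 0.16) and -0.11 (SE 0.17). Ndufaf6, an assembly factor of complex I, went the other way, with 13.7, 9.46, 14.1, 17.2 and 17.1 CPM in WT and 23.5, 27.7, 28.7, 27.6 and 32.0 CPM in PiZ. Its ranges did not overlap, and it was 1.93-fold higher in PiZ (log2 0.95, SE 0.20, edgeR adjusted p = 0.000858).

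In complex III, the core protein Uqcrc2 was at 263, 189, 238, 213 and 305 CPM in WT and at 153, 156, 151, 147 and 164 CPM in PiZ, again without overlap (log2 -0.65, SE 0.13, edgeR adjusted p = 0.00045). Its partner Uqcrc1 was lower by less (log2 -0.38, SE 0.14, edgeR adjusted p = 0.0478), also without overlap, and stayed called in 7 of 22 settings. The Rieske iron-sulphur protein Uqcrfs1 was not called (log2 -0.51, SE 0.25). In complex V, Atp5e and Atp5h, small subunits of the ATP synthase, were lower in PiZ by 0.47 and 0.41 on the log2 scale (SE 0.14 and 0.13). The catalytic subunits Atp5b (log2 -0.35, SE 0.22) and Atp5a1 (log2 -0.29, SE 0.14) were not called.

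Complex IV held the 2 called members with the greatest fold change in the comparison, Cox6a2 (log2 -4.15, SE 1.07) and Cox7a1 (log2 -3.85, SE 0.71), both isoforms of striated muscle, described below with the muscle markers. Cox6c, an accessory subunit, was at 766, 477, 678, 643 and 602 CPM in WT and at 412, 488, 454, 527 and 398 CPM in PiZ (log2 -0.47, SE 0.13, edgeR adjusted p = 0.00608). The groups overlapped only through WT replicate 2, at 477 CPM. Cox7a2l, which helps join complexes III and IV into supercomplexes, was higher in PiZ (96.5 ± 21.8 CPM in WT, 141 ± 12.6 CPM in PiZ, log2 0.55, SE 0.14, edgeR adjusted p = 0.00551), with the lowest values, 73.8 and 77.1 CPM, in WT replicates 2 and 5. Sdhaf1, an assembly factor of complex II, was also higher (log2 0.99, SE 0.37, edgeR adjusted p = 0.0449), with WT replicates 2 and 5 at 0 and 4.89 CPM and the other WT livers at 13.2 to 16.9 CPM. Without WT replicates 2 and 5 neither was called: Cox7a2l was at log2 0.36 (edgeR adjusted p = 0.0774, and 0.00126 to 0.252 over its alternatives) and Sdhaf1 at log2 0.44 (edgeR adjusted p = 0.205, and 0.0136 to 0.313 over its alternatives). Cox4i1, the widely expressed form of subunit 4, was not called either (404 ± 132 CPM in WT, 369 ± 48.6 CPM in PiZ, log2 -0.13, SE 0.18). Neither Sdha (log2 -0.15, SE 0.17) nor Sdhb (log2 0.11, SE 0.24) was called.

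WT replicates 2 and 5 at 6 weeks set much of the spread behind these values. In 25 of the 92 nuclear members both lay below every other liver of the study, a pattern not counted over all genes. Cox8a, for example, was at 13.2 and 44.3 CPM in these animals and at 220 to 244 CPM in the other WT livers of that age. Cox5a was at 21.8 and 37.0 CPM against 223 to 253 CPM, Ndufa4, a subunit now placed in complex IV, at 12.8 and 12.2 CPM against 63.2 to 73.7 CPM, and Cox7a2 at 45.4 and 140 CPM against 477 to 637 CPM. The same libraries had the greatest shares of unique reads outside genes, as given above, and the lowest hepatocyte marker sums of the 6-week WT livers, 37791 and 56938 CPM against 85387 to 99126 CPM. The part of either in these low values was not tested. Other members did not share the pattern: Atp5d was at 406 and 361 CPM in the 2 livers and at 334 to 362 CPM in the others. Without both libraries, a choice made after seeing the data, 1 nuclear member was called higher and 20 lower, where 9.03% of all genes were called higher and 8.95% lower. The nuclear median moved from -0.09 to -0.30 on the log2 scale, with 75 of 92 below 0, and the median over all genes was 0.01. Cox6c stayed called in 21 of 22 alternative settings, and Ndufa3, Uqcrc2 and Ndufaf6 each in 22 of 22.

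All 11 tested mitochondrial genes were below 0 in PiZ at 6 weeks, with a median of -0.85 on the log2 scale, and 8 were called lower. The most read genes were mt-Nd4, with 39677, 80872, 33158, 37756 and 42455 CPM in WT and 23297, 28595, 39611, 30847 and 25904 CPM in PiZ, and mt-Nd2, with 43226, 98698, 28000, 28668 and 43241 CPM in WT and 20948, 31283, 31876, 38447 and 24423 CPM in PiZ. In both genes, as in mt-Nd1, mt-Nd5, mt-Cytb and mt-Co1, WT replicate 2 stood far above the other livers and the remaining values overlapped. For mt-Cytb, the only mitochondrial subunit of complex III, WT livers were at 9874, 31542, 6841, 9223 and 14947 CPM and PiZ livers at 6237, 6739, 7601, 8263 and 8524 CPM (log2 -0.95, SE 0.29, edgeR adjusted p = 0.0147). For mt-Co1, the catalytic subunit of complex IV, the values were 2318, 7125, 1701, 1884 and 2993 CPM and 1372, 1771, 1578, 2063 and 1852 CPM (log2 -0.89, SE 0.25, edgeR adjusted p = 0.00929). The remaining calls were mt-Atp6 (log2 -1.22, SE 0.33), mt-Co2 (-1.11, SE 0.41), mt-Nd1 (-0.87, SE 0.26), mt-Nd6 (-0.85, SE 0.31), mt-Nd2 (-0.72, SE 0.25) and mt-Nd4 (-0.66, SE 0.22). Not called were mt-Nd3 (-0.74, SE 0.48), mt-Co3 (-0.71, SE 0.30) and mt-Nd5 (-0.52, SE 0.24). None of the 8 calls held without WT replicate 2, when the median was -0.36 and all 11 genes remained below 0. No mitochondrial gene was called either when WT replicates 1 and 2 were left out (median -0.35), with the muscle markers as a covariate (median -0.45), or when only the 2 groups compared were fitted (median -0.84). The median was -0.20 with 1 surrogate variable and -0.26 without WT replicates 2 and 5. In both of these settings 10 of 11 genes were below 0 and 0 were called.

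**Figure D2:**
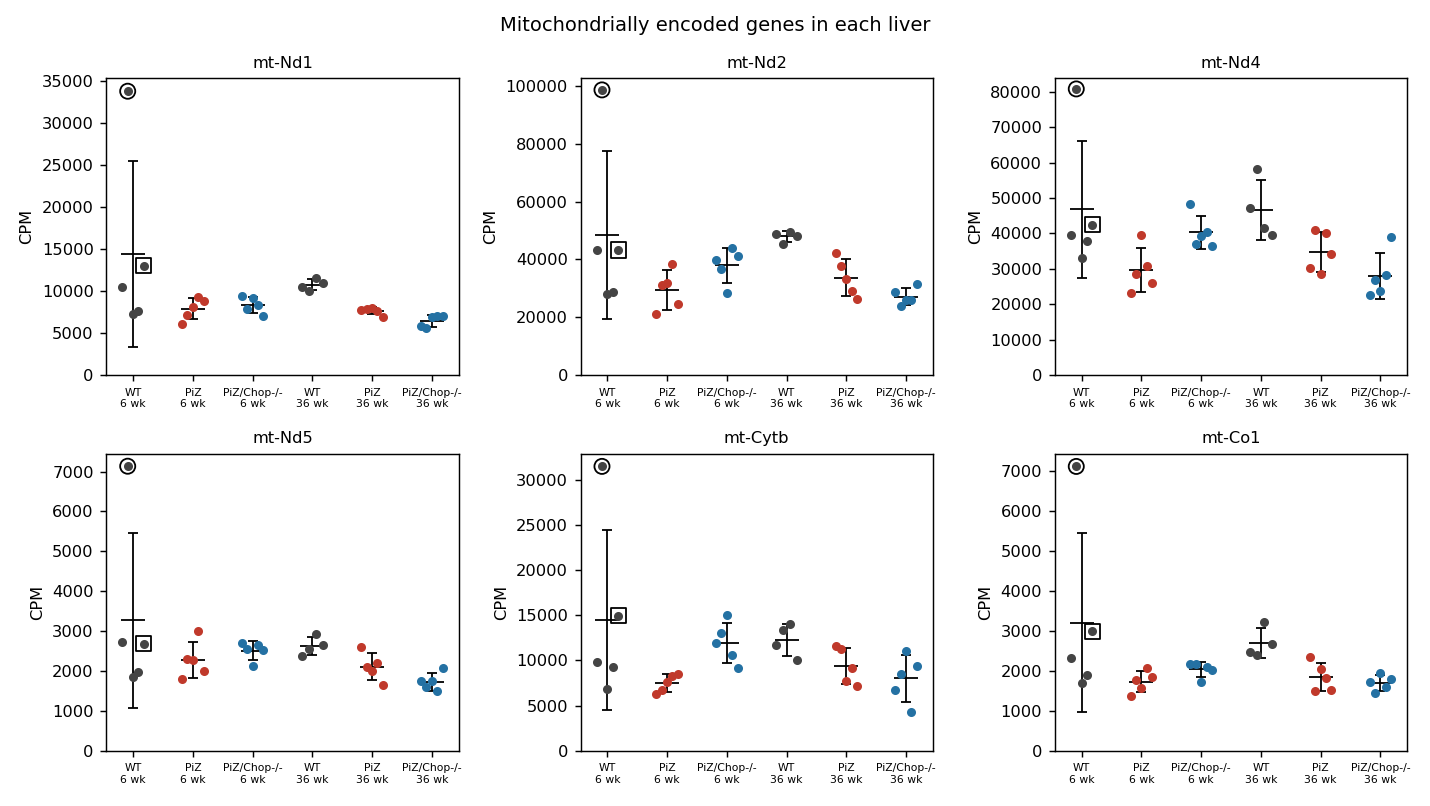
TMM-scaled CPM (vertical axis) of the 6 most read mitochondrially encoded genes in each liver, with mean and SD, in WT (grey), PiZ (red) and PiZ/Chop-/- (blue) at 6 and 36 weeks; ring, WT replicate 2, and square, WT replicate 5, both at 6 weeks. WT replicate 2 is the highest of the 29 livers for each gene shown, 98698 CPM for mt-Nd2 and 80872 CPM for mt-Nd4.

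At 36 weeks the question was the same in older animals, and the WT group was tight. No member was called by edgeR between PiZ and WT (2.43% of all genes were called), 22 of 103 had an unadjusted p below 0.05, and DESeq2 called 2. Of the nuclear members, 80 of 92 were below 0, 21 of them with an unadjusted p below 0.05, and 0 of the members above 0 had one. The nuclear median was -0.29 on the log2 scale against 0.00 over all genes. CPM ranges lay lower in PiZ without overlap for 32 of the 92 nuclear members, 34.8%, against 4.1% of all genes, and 0 lay higher without overlap, against 4.61% of all genes. TMM factors also separated the groups, at 0.902 to 0.977 in WT and 0.994 to 1.04 in PiZ, and their part was not tested. The hepatocyte markers had a median of -0.31. Markers of stellate cells, the matrix-forming cells of the liver, summed to 299 to 340 CPM in WT, 376 to 545 CPM in PiZ and 421 to 545 CPM in PiZ/Chop-/- at this age (3 of 6 called higher in PiZ than in WT). Lymphocyte markers summed to 8.41 to 16.9 CPM in WT, 26.05 to 33.2 CPM in PiZ and 14.5 to 43.9 CPM in PiZ/Chop-/- (Cd79a was at 0 in all livers of WT and PiZ/Chop-/-), and macrophage markers to 144 to 361, 258 to 462 and 202 to 830 CPM. Stellate and lymphocyte sums thus separated PiZ from WT without overlap, and the part of these markers in the lower values of the subunits was not tested.

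In complex I, the flavoprotein subunit Ndufv1 was at 270.0, 233.1, 292 and 333 CPM in WT and at 232.5, 232.6, 206, 197 and 222 CPM in PiZ (log2 -0.37, SE 0.18, edgeR adjusted p = 0.341). For Sdha, the flavoprotein of complex II, the WT values were 344, 316, 337 and 363 CPM and the PiZ values 291, 214, 264, 267 and 265 CPM (log2 -0.39, SE 0.18, adjusted p = 0.336). Uqcrc2 of complex III was at 234, 224, 222 and 215 CPM in WT and at 157, 157, 160, 194 and 159 CPM in PiZ (log2 -0.44, SE 0.14, adjusted p = 0.0883). Cox6c of complex IV was at 726, 738, 691 and 756 CPM and at 539, 596, 514, 583 and 572 CPM (log2 -0.38, SE 0.13, adjusted p = 0.151). In complex V, Atp5a1 was at 647, 666, 753 and 787 CPM in WT and at 516, 463, 552, 584 and 537 CPM in PiZ (log2 -0.43, SE 0.15, adjusted p = 0.135). In each of these 5 genes every PiZ liver lay below every WT liver, for Ndufv1 by less than 1 CPM, while the adjusted p of edgeR missed the threshold.

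Fitted on the 2 groups alone, 9 nuclear members and 1 mitochondrial member were called lower in PiZ at 36 weeks, where 2.1% of all genes were called lower. With 1 surrogate variable, 9 nuclear members were called lower, against 1.7% of all genes. Of the mitochondrial genes 10 of 11 were below 0, with a median of -0.43. For mt-Nd1 the WT livers were at 10460, 9969, 11465 and 10928 CPM and the PiZ livers at 7712, 7817, 7998, 7654 and 6883 CPM, without overlap (log2 -0.49, SE 0.28, edgeR adjusted p = 0.464). The same held for mt-Nd2, at 45267 to 49659 CPM in WT and 26401 to 42259 CPM in PiZ, and for mt-Co1. The difference in the PiZ effect between the ages was tested directly, and no member was called (2.41% of all genes were called). In that test 9 of 103 members had an unadjusted p below 0.05, DESeq2 called 0, and 1 member was called without PiZ replicate 4 at 36 weeks.

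**Figure D3:**
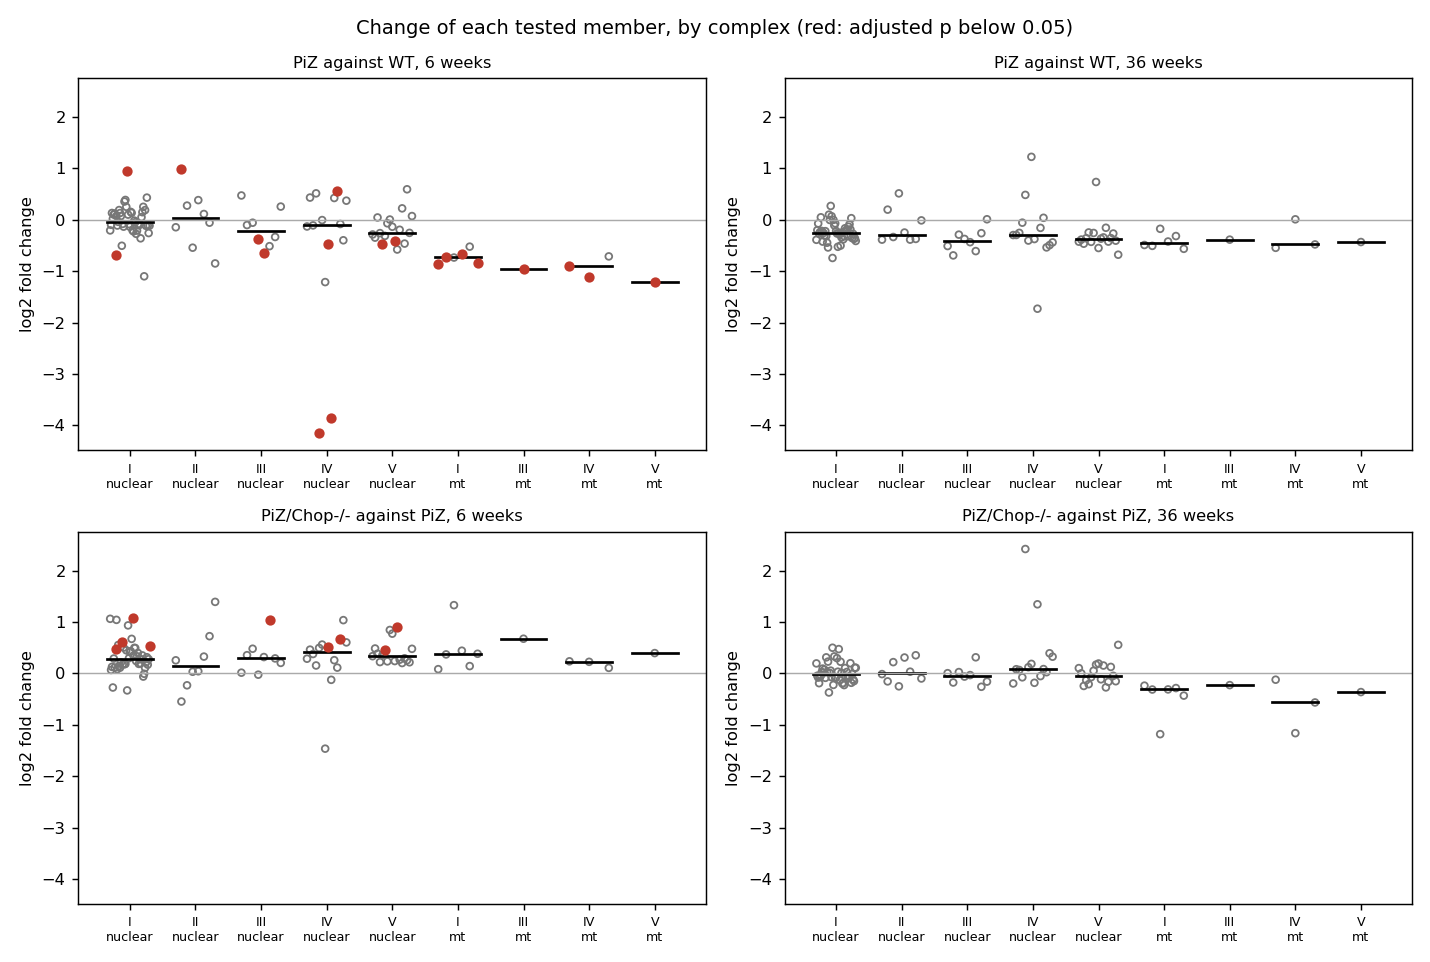
Log2 fold change from edgeR (vertical axis) of each tested member, grouped by complex and genome (horizontal axis), for 4 comparisons; red points have an adjusted p below 0.05, open points do not, and the bar is the median. At 36 weeks 80 of 92 nuclear members lie below 0 in PiZ against WT, and at 6 weeks 83 of 92 lie above 0 in PiZ/Chop-/- against PiZ.

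PiZ/Chop-/- livers were compared with PiZ livers to ask what the loss of Chop changes in animals that carry the transgene. At 6 weeks 9 nuclear members were called higher by edgeR and 0 lower, where 3.9% of all genes were called higher and 2.89% lower; 33 nuclear members had an unadjusted p below 0.05 in the higher direction and 1 in the lower, and DESeq2 called 13 higher and 0 lower. In all, 83 of 92 nuclear members were above 0, with a median of 0.29 on the log2 scale against -0.01 over all genes. The libraries of these groups also differed without overlap: reads aligned to several places made up 34.8% to 42.1% in PiZ and 43.1% to 51.8% in PiZ/Chop-/-, 13494 to 14337 and 12728 to 13436 genes were detected, and TMM factors were 1.01 to 1.12 and 0.927 to 0.960. The part of these measures in the result was not tested. Ranges lay higher without overlap for 22 of 92, 23.9%, against 4.9% of all genes, and lower without overlap for 0, against 4.09% of all genes. All 9 called members were subunits: Ndufa3, Ndufb3, Ndufv3 and Ndufab1 of complex I, Uqcrfs1 of complex III, Cox6c and Cox7b of complex IV, and Atp5f1 and Atp5j of complex V.

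Cox6c rose from 412, 488, 454, 527 and 398 CPM in PiZ to 624, 681, 630, 632 and 693 CPM in PiZ/Chop-/-, a 1.43-fold difference (log2 0.52, SE 0.13, edgeR adjusted p = 0.0105). The WT livers of that age lay at 477 to 766 CPM, and the PiZ/Chop-/- against WT difference was 0.04 on the log2 scale (SE 0.13). Ndufa3 was at 168, 181, 241, 181 and 166 CPM in PiZ/Chop-/- and at 123 to 147 CPM in PiZ (log2 0.47, SE 0.13, edgeR adjusted p = 0.0282). Ndufv3, which sits beside the NADH site of complex I, was at 257, 309, 250, 235 and 279 CPM against 152 to 232 CPM (log2 0.53, SE 0.16, adjusted p = 0.0414), and Ndufab1, the mitochondrial acyl carrier protein, at 62.8, 86.8, 74.0, 57.7 and 63.7 CPM against 35.8 to 50.9 CPM (log2 0.61, SE 0.19, adjusted p = 0.048). These 4 were the called members whose groups did not overlap.

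In the other 5 called members the ranges of the 2 groups overlapped. Uqcrfs1 was at 117, 142, 178, 61.8 and 56.0 CPM in PiZ/Chop-/- and at 48.3, 44.2, 53.2, 51.2 and 70.1 CPM in PiZ (log2 1.05, SE 0.25, edgeR adjusted p = 0.00851). Replicates 1, 2 and 3 were above every PiZ liver, and replicates 4 and 5 within the PiZ range. Atp5j (64.9, 85.0, 112, 37.7 and 39.3 CPM against 28.7 to 46.1 CPM, log2 0.90, SE 0.24) divided the animals in the same way. Ndufb3 was at 178, 194, 204, 89.2 and 69.9 CPM against 55.3 to 86.1 CPM (log2 1.08, SE 0.32), with replicate 4 just above the PiZ range and replicate 5 within it. Cox7b (log2 0.66, SE 0.21) and Atp5f1 (log2 0.45, SE 0.14) each had overlapping ranges. Members that were not called showed the split too: Sdhc, an anchor subunit of complex II, was at 91.3, 105, 140, 57.2 and 69.9 CPM in PiZ/Chop-/- and 46.2 to 77.1 CPM in PiZ (log2 0.72, SE 0.25, adjusted p = 0.0755), and Ndufa4 at 123, 106, 171, 48.8 and 48.9 CPM against 39.2 to 76.5 CPM (log2 1.04, SE 0.39, adjusted p = 0.107). PiZ/Chop-/- replicate 3 held the highest value of all 29 livers in 23 of the 92 nuclear members, which was not counted over all genes. It also held the highest sum of 4 erythroid markers, 1708 CPM, against 261 to 924 CPM in the other PiZ/Chop-/- livers and 212 to 561 CPM in PiZ (1 of 4 called higher in PiZ/Chop-/-), and their part was not tested.

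**Figure D4:**
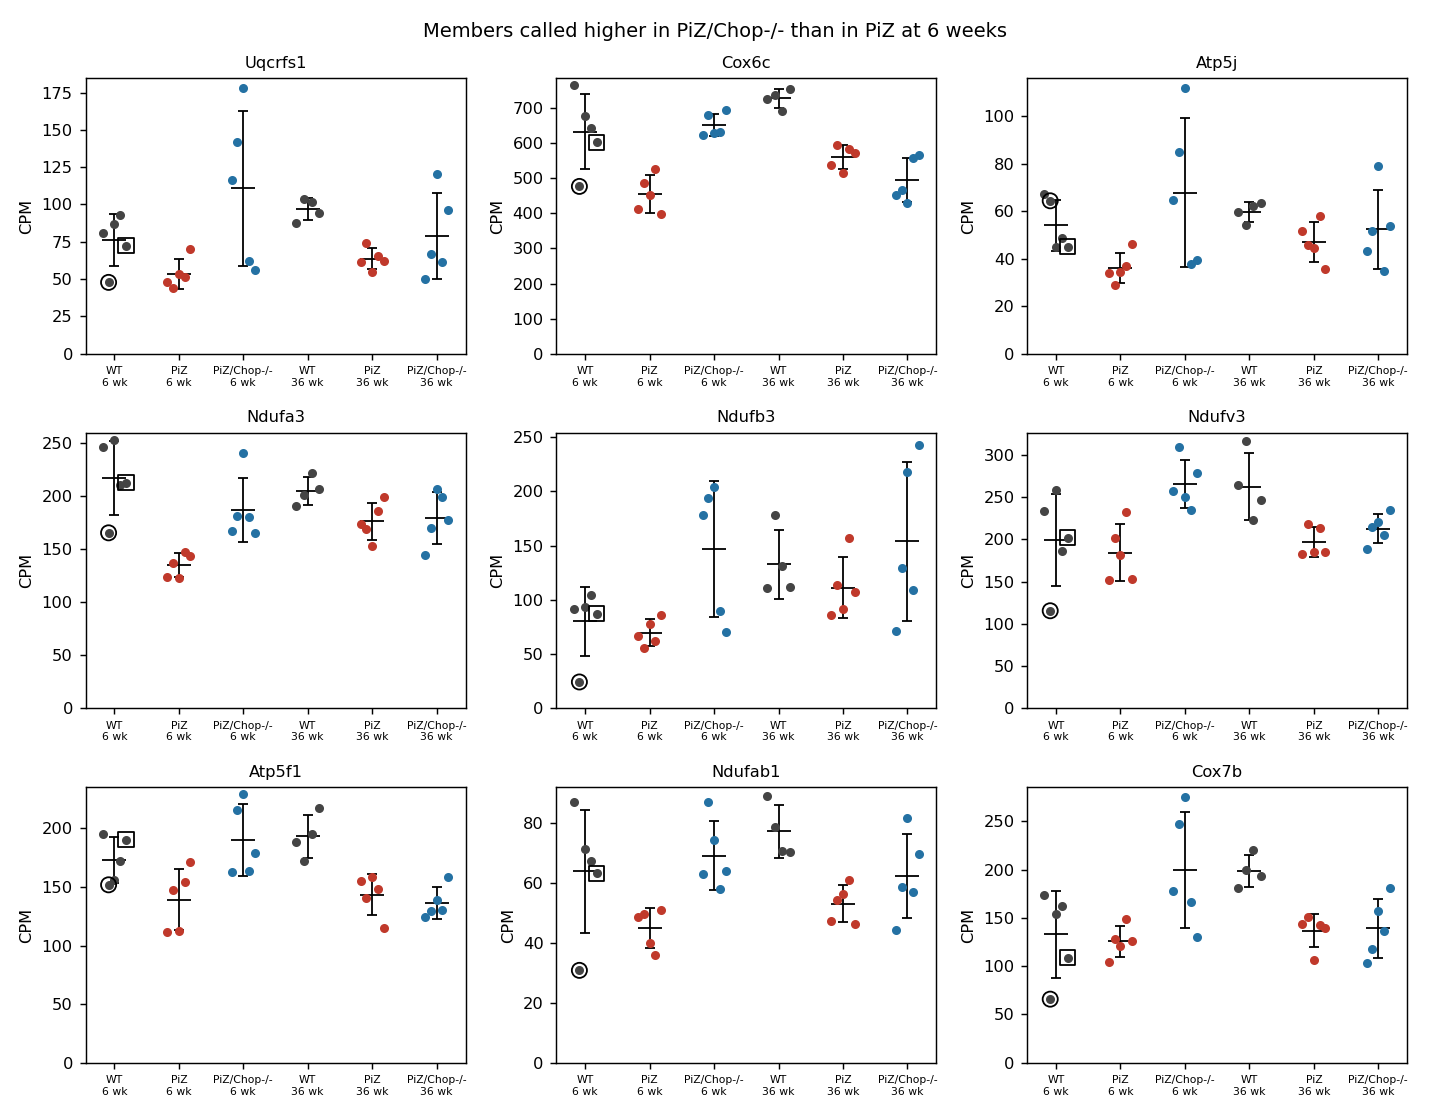
TMM-scaled CPM (vertical axes) of the 9 members called higher in PiZ/Chop-/- than in PiZ at 6 weeks, in every liver of the 6 groups, with mean and SD; WT grey, PiZ red, PiZ/Chop-/- blue, ring WT replicate 2 and square WT replicate 5 at 6 weeks. Cox6c, Ndufa3, Ndufv3 and Ndufab1 separate the 6-week PiZ and PiZ/Chop-/- livers, while replicates 4 and 5 of PiZ/Chop-/- lie at 61.8 and 56.0 CPM for Uqcrfs1, within the PiZ range.

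The count of 9 was not stable. It fell to 1 without PiZ/Chop-/- replicate 3, to 2 without PiZ/Chop-/- replicate 2 or PiZ replicate 2, to 3 without PiZ replicate 1 or 3, and to 5 without PiZ replicate 4, all at 6 weeks. It rose to 13 with DESeq2 (5.06% of all genes called higher), to 22 nuclear members and 1 mitochondrial member with 1 surrogate variable (5.58%), and to 23 and 2 when only the 2 groups were fitted (5.75%). Single calls held in 8 of 20 settings (Atp5f1 and Ndufab1) to 19 of 20 (Cox6c and Uqcrfs1). The ratio of the clock genes Dbp and Arntl, on the log2 scale, was 5.35 to 7.02 in 4 of the 5 PiZ/Chop-/- livers and -1.95 in replicate 1, against -1.70 to 3 in PiZ. With that ratio as a covariate 1 member was called and 81 of 92 nuclear members remained above 0, with a median of 0.32. The hepatocyte markers had a median change of 0.30 on the log2 scale in the same comparison, close to that of the nuclear members. Macrophage markers went the other way, with a median sum of 755 CPM in PiZ and 448 CPM in PiZ/Chop-/-, in ranges that overlapped. The part of both sets of markers was not tested. The 11 mitochondrial genes were all above 0 (median 0.37), 2 had an unadjusted p below 0.05 in the higher direction, and none was called in the main edgeR fit or by DESeq2. For mt-Cytb the PiZ/Chop-/- livers were at 11899, 13019, 15017, 10611 and 9125 CPM against 6237 to 8524 CPM in PiZ, without overlap (log2 0.68, SE 0.29, edgeR adjusted p = 0.164).

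At 36 weeks no difference between PiZ/Chop-/- and PiZ was detected among the members. No member was called by edgeR or DESeq2 (edgeR called 0.0368% of all genes), 3 of 103 had an unadjusted p below 0.05, the nuclear median was 0.00 on the log2 scale, and 47 of 92 were above 0. All 11 mitochondrial genes were below 0, with a median of -0.31. Ndufa3 was at 174, 169, 153, 186 and 200 CPM in PiZ and at 144, 170, 207, 199 and 178 CPM in PiZ/Chop-/- (log2 0.03, SE 0.13), and Uqcrfs1 at 61.5, 74.0, 54.7, 65.4 and 61.9 CPM and at 50.0, 66.5, 121, 61.6 and 96.1 CPM (log2 0.31, SE 0.25). Set against WT at 36 weeks, PiZ/Chop-/- livers had 8 nuclear members called lower and 0 higher by edgeR (1.61% and 2.81% of all genes were called lower and higher), with 24 and 1 at an unadjusted p below 0.05. They were Cox6c (log2 -0.56, SE 0.13), Uqcrh (-0.52, SE 0.14), Uqcrc2 (-0.47, SE 0.14), Uqcr11 (-0.87, SE 0.26), Atp5h (-0.48, SE 0.13), Atp5d (-0.49, SE 0.14), Atp5f1 (-0.50, SE 0.15) and Ndufb7 (-0.44, SE 0.12). Thus 3 belong to complex III, 3 to complex V, and 1 each to complexes I and IV.

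Uqcr11, a small subunit of complex III, was at 305, 332, 297 and 377 CPM in WT, at 187, 196, 194, 210 and 225 CPM in PiZ, and at 141, 146, 208, 187 and 214 CPM in PiZ/Chop-/- at 36 weeks. Every animal with the transgene lay below every WT animal, and the 2 transgenic groups overlapped. The edgeR adjusted p was 0.0474 for PiZ/Chop-/- against WT and 0.173 for PiZ against WT, which share the WT livers. Uqcrh, the hinge protein of complex III, was at 487, 471, 527 and 611 CPM in WT and at 367, 329, 317, 412 and 399 CPM in PiZ/Chop-/- (edgeR adjusted p = 0.0325). Over all nuclear members 78 of 92 were below 0 in PiZ/Chop-/- (median -0.27), and 20 lay lower without overlap, against 3.81% of all genes. The hepatocyte markers had a median of -0.38 in this comparison, and the stellate sums given above lay higher without overlap (3 of 6 markers called higher). TMM factors were 0.902 to 0.977 in WT and 1.03 to 1.11 in PiZ/Chop-/-, also without overlap, and the part of the markers and of this measure was not tested. All 11 mitochondrial genes were below 0 (median -0.80), 8 of them without overlap and 10 with an unadjusted p below 0.05. The count of 8 called members fell to 1 without WT replicate 1 or 4 or PiZ/Chop-/- replicate 1 or 2, to 2 without WT replicate 3, and to 3 without PiZ/Chop-/- replicate 3. Over the settings run, Cox6c stayed called in 19 of 19 and the other 7 genes in 6 to 9.

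At 6 weeks PiZ/Chop-/- against WT gave 9 nuclear members called higher, 4 nuclear members called lower and mt-Nd1 called lower, where 19.5% of all genes were called, 9.36% higher and 10.1% lower. The rises included Ndufa4 (log2 1.12, SE 0.39), Atp5mpl (0.85, SE 0.28), Ndufb2 (0.81, SE 0.23), Ndufs8 (0.75, SE 0.19) and Cox7a2l (0.66, SE 0.14). WT replicates 2 and 5 lay below every other liver in all 5 of these genes. Ndufs8, an iron-sulphur core subunit of complex I, was at 83.2, 28.4, 74.8, 68.5 and 41.5 CPM in WT and at 90.1, 108, 88.3, 101 and 111 CPM in PiZ/Chop-/-. Without the 2 WT libraries 1 member was called higher and 3 lower, where 4.96% of all genes were called higher and 3.81% lower. The 5 rises named held in 11 to 20 of 22 settings. The falls were Cox7a1, Cox6a2, Cox6b2 (log2 -2.68, SE 0.65) and Uqcrc1 (log2 -0.41, SE 0.14). Cox7a1 stayed called in 22 of 22 settings and Cox6b2 in 20 of 21, but Uqcrc1 in 8 of 22, and Cox6a2 turned to a log2 fold change of 0.40 with the muscle covariate and 0.50 without WT replicates 1 and 2. For Cox6b2, with 160 reads in all 29 libraries, the WT livers of this age sufficed to carry it past the low-count filter. Its settings are therefore no separate support. For mt-Nd1 the call held in 8 of 21 settings. Without WT replicate 2 no mitochondrial gene was called and their median moved from -0.46 to -0.12, and without replicates 2 and 5 it turned to 0.10. Leaving out single animals moved the count of 14 to 27 without WT replicate 1, to 24 without WT replicate 3, to 8 without WT replicate 2 or PiZ/Chop-/- replicate 2, and to 9 without WT replicate 5 or PiZ/Chop-/- replicate 3.

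With age, most nuclear members lay lower in PiZ/Chop-/- livers. From 6 to 36 weeks 82 of 92 were below 0, with a median of -0.33 on the log2 scale against 0.02 over all genes, and 18 lay lower without overlap, against 2.13% of all genes. The hepatocyte markers also lay lower without overlap, at a sum of 68742 to 87739 CPM at 6 weeks and 51769 to 64444 CPM at 36 weeks (median log2 -0.42, 0 of 8 called). The libraries of the ages stood apart as well, with TMM factors of 0.927 to 0.960 at 6 weeks and 1.03 to 1.11 at 36 weeks and 12728 to 13436 against 13533 to 13926 genes detected. The part of the markers and of these measures was not tested. Called lower by edgeR were Atp5j2 of complex V (log2 -0.50, SE 0.13), Uqcrh (-0.53, SE 0.14) and Ndufb7, an accessory subunit of complex I (-0.46, SE 0.12), with 0.644% of all genes called lower and 22 nuclear members at an unadjusted p below 0.05. The mitochondrial gene mt-Nd3 was also called lower, at 4.96, 6.23, 18.8, 5.15 and 3.86 CPM at 6 weeks and 0.806, 2.01, 0.783, 1.85 and 1.39 CPM at 36 weeks (log2 -2.43, SE 0.52, edgeR adjusted p = 0.00929), on very few reads (320 in all 29 libraries). In that comparison the count of 4 members fell to 0 without PiZ/Chop-/- 6-week replicate 3, to 1 without 6-week replicate 2 or 5 or 36-week replicate 1 or 2, and to 2 without 6-week replicate 4 or 36-week replicate 3. In PiZ livers no member was called between the ages by edgeR (5.33% of all genes), 5 of 103 had an unadjusted p below 0.05, DESeq2 called 2, and the nuclear median was 0.04.

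The change in the PiZ/Chop-/- against PiZ effect from 6 to 36 weeks was tested as an interaction. Cox6c was called, with a log2 effect of 0.52 at 6 weeks and -0.18 (SE 0.13) at 36 weeks, a difference of -0.70 (SE 0.18, edgeR adjusted p = 0.0407), where 1.43% of all genes were called, 0.873% below 0. It was the single member called, 79 of 92 nuclear members had a difference below 0 (median -0.35), and 15 of them had an unadjusted p below 0.05. All 11 mitochondrial genes were below 0 (median -0.75), with 4 at an unadjusted p below 0.05. Cox6c was called in 11 of 30 settings and kept its direction in all 30. Leaving out single animals ended the call for 15 of the 20 livers, among them 8 of the 10 livers sampled at 6 weeks.

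In WT livers, 36 against 6 weeks gave 3 members called, all lower and all of complex IV: Cox6a2 (log2 -5.42, SE 1.34), Cox6b2 (-3.42, SE 0.76) and Cox7a1 (-2.38, SE 0.69). In this comparison 3.69% of all genes were called, 2% lower. Muscle markers moved with it, at 4860 and 5676 CPM in WT replicates 1 and 2 and 33.0 to 311 CPM in the others at 6 weeks and at 12.8 to 116 CPM at 36 weeks. With the muscle covariate only Cox6b2 stayed called (1.28% of all genes were called), at log2 -3.44, with Cox6a2 at -1.04 and Cox7a1 at -0.98. Over the settings run Cox6b2 stayed called in 17 of 20, Cox6a2 in 15 of 21 and Cox7a1 in 7 of 21. Cox6b2, known as the testis form of its subunit, was at 5.49, 7.10, 4.50, 8.43 and 1.74 CPM at 6 weeks and at 1.40, 0, 0 and 0.366 CPM at 36 weeks, where the last 3 values are under 3 counts. It had 160 reads in all 29 libraries, and the 6-week WT livers sufficed to carry it past the low-count filter. The size of its fold change is therefore uncertain, and its calls over the settings are no separate support. The count was 6 without WT 6-week replicate 1, 5 without WT 6-week replicate 3, 1 without WT 36-week replicate 1, and 0 without WT 36-week replicate 2 or 4. The nuclear median was 0.24 with all WT libraries and 0.03 without WT replicates 2 and 5 at 6 weeks.

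Among the muscle isoforms of complex IV, Cox6a2 and Cox8b were high in single livers, while Cox7a1 also separated the 6-week groups. Cox6a2 was at 153, 77.1, 6.01, 1.40 and 0.349 CPM in WT at 6 weeks, at 0.960 to 4.65 CPM in PiZ and at 0 to 8.46 CPM in PiZ/Chop-/- of that age. At 36 weeks it lay between 0 and 3.81 CPM in WT and between 0 and 3.40 CPM in PiZ, and it reached 33.3 CPM in PiZ/Chop-/- replicate 3. Cox7a1 was at 49.0, 29.3, 3.003, 9.83 and 12.2 CPM in WT at 6 weeks and between 0 and 8.22 CPM in every other liver. Cox8b, too sparse to be tested, was at 20.8 and 32.6 CPM in WT replicates 1 and 2 at 6 weeks and at most 2.35 CPM elsewhere. The livers with the highest values of Cox6a2 were the 3 with the most skeletal muscle marker transcripts: WT replicates 1 and 2 at 6 weeks and PiZ/Chop-/- replicate 3 at 36 weeks. Of the 14 muscle markers 12 were called lower in PiZ than in WT at 6 weeks, with a median log2 fold change of -5.87. The 4 heart markers together summed to at most 2.51 CPM in any liver, and 2 of them, Myh6 and Nppa, were at 0 in all groups. With the muscle markers as a covariate Cox6a2 was no longer lower in PiZ, at a log2 fold change of 1.30 (edgeR adjusted p = 0.355). Cox7a1 remained called in PiZ against WT in 22 of 22 settings, the muscle covariate included (log2 -2.22), and all PiZ and PiZ/Chop-/- livers of 6 weeks, at 0 to 2.48 CPM, lay below the lowest WT value of 3.003 CPM. The widely expressed partner Cox6a1 was at 597 to 737 CPM in WT replicates 1, 3 and 4 and at 80.4 and 193 CPM in replicates 2 and 5, and it was not called in PiZ (log2 0.51, SE 0.31). Cox4i2, the hypoxia and lung form of subunit 4, had 8 reads in the whole study.

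**Figure D5:**
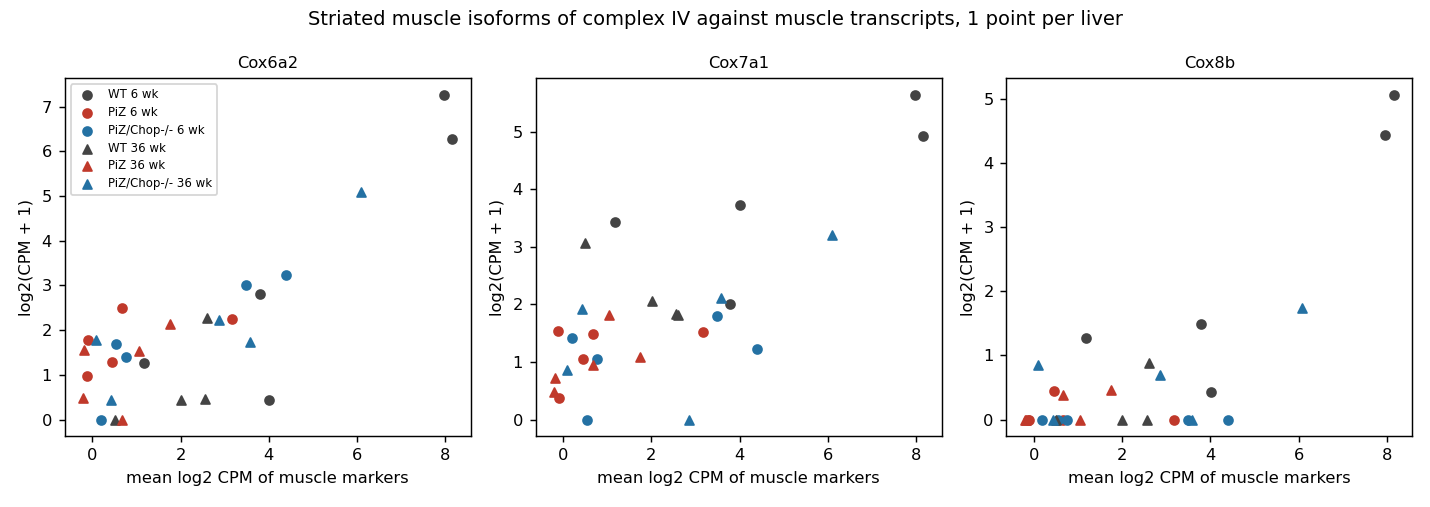
Log2 of CPM plus 1 of Cox6a2, Cox7a1 and Cox8b (vertical axes) against the mean log2 CPM of 14 skeletal muscle markers (horizontal axes), 1 point per liver, circles at 6 weeks and triangles at 36 weeks. The 2 WT livers with the highest marker values, 7.96 and 8.16, are the 2 with the highest Cox6a2, Cox7a1 and Cox8b.

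Genes that act with the respiratory chain were taken from lists of related functions, mostly in the 6-week comparisons, where they held calls by edgeR. Their counts stand beside a background of 12.4% of all genes called higher and 13.3% lower in PiZ against WT, and of 3.9% higher and 2.89% lower in PiZ/Chop-/- against PiZ. Of 10 regulators of mitochondrial gene expression, 4 were called lower in PiZ than in WT and 0 higher, with a median of -0.75 on the log2 scale against -0.03 over all genes. They included the coactivators Ppargc1b (8.83 ± 2.64 CPM in PiZ and 23.7 ± 4.33 in WT, n = 5 each, log2 -1.42, SE 0.33, adjusted p = 0.00185) and Ppargc1a (log2 -1.11, SE 0.34, adjusted p = 0.0151), and Nrf1, whose site letters are given above (log2 -0.86, SE 0.25, adjusted p = 0.0104). In PiZ/Chop-/- against PiZ, Ppargc1b (log2 1.37, SE 0.33) and the nuclear receptor Esrra (log2 1.30, SE 0.38) were called higher, 2 of the 10 genes. Of 24 genes for mitochondrial DNA copying, transcription and RNA handling, 5 were called lower in PiZ and 1 higher, with a median of -0.14 on the log2 scale against -0.03 over all genes. Tfam, which packages and transcribes mitochondrial DNA, was at 30.7 ± 1.21 CPM in PiZ and 48.6 ± 10.4 CPM in WT (log2 -0.66, SE 0.14, adjusted p = 0.00108). Polg, the mitochondrial DNA polymerase, was lower in PiZ (log2 -0.85, SE 0.20) and higher in PiZ/Chop-/- than in PiZ (log2 0.64, SE 0.20). So was Hsd17b10, a part of mitochondrial RNase P (-0.63, SE 0.15, and 0.70, SE 0.15). The 2 comparisons share the PiZ livers of 6 weeks, so opposite signs in them are not independent.

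Of 12 mitochondrial chaperones, proteases and stress genes, 4 were called higher in PiZ than in WT at 6 weeks and 3 were called lower in PiZ/Chop-/- than in PiZ. Gdf15, a secreted stress hormone, was at 340 ± 127 CPM in PiZ, 68.3 ± 27.1 CPM in WT and 57.4 ± 36.4 CPM in PiZ/Chop-/- (log2 2.31, SE 0.44, and -2.56, SE 0.44). The protease Lonp1 (0.84, SE 0.13, and -0.83, SE 0.13) and the transcription factor Atf5 (0.95, SE 0.25, and -1.25, SE 0.25) were called in the same directions, in comparisons that share the PiZ livers. Atpif1, the inhibitor of the ATP synthase, was at 45.9 ± 13.5 CPM in WT, 102 ± 14.4 CPM in PiZ and 55.8 ± 5.98 CPM in PiZ/Chop-/- (log2 1.15, SE 0.18, and -0.87, SE 0.18), so the inhibitor and the subunit Atp5e had opposite signs in PiZ. Among complex IV assembly factors Coa3 was higher (log2 1.08, SE 0.21) and the copper chaperone Sco2 lower (log2 -1.11, SE 0.23) in PiZ, 3 of 19 having been called. For ubiquinone, the electron carrier, Coq8a was lower in PiZ at both ages (log2 -0.99, SE 0.25, and -1.24, SE 0.26) and Coq10b higher at both ages (log2 1.55, SE 0.37, and 1.44, SE 0.39), 2 of 12 genes. Of 74 mitochondrial ribosomal proteins, 10 were called higher and 6 lower at 6 weeks, with a median of 0.02, near the 12.4% of all genes called higher and a smaller share than the 13.3% called lower.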

How the data were processed

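Libraries were made from total liver RNA with the QuantSeq 3′ kit and sequenced from a single end, per the labels' protocols. The authors deposited raw read counts per Ensembl gene, 1 table per sample. The submitters' processing notes name the build mm10, and the aligner, counting program and strand setting are not given in the sources used here. Summary lines for unassigned reads were kept out of library sizes and tests: reads aligned to several places made up 34.0% to 64.5% of all reads in the tables. Symbols came from GENCODE M21, which matched 31011 of 31053 identifiers and writes mt-Cyb as mt-Cytb.

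Counts were fitted in R 4.3.3 with edgeR 4.0.16: filterByExpr (minimum count 10), TMM scaling, and quasi-likelihood tests from a fit to all 29 samples in which each group had its own coefficient. The 11 two-sided contrasts were Benjamini-Hochberg adjusted over all 10877 genes and called below 0.05. SEs are the absolute log2 fold change divided by the square root of F. CPM are TMM-scaled. Replicates are separate animals per the labels, and the labels name no batch. Genes were named by a fixed rule: mitochondrial members, a panel of nuclear members, up to 5 called members per direction and comparison, up to 3 called genes per related list, and Ddit3. Other members named with values were chosen after their values were seen. The members and lists were chosen with earlier results of these data known. Alternatives used DESeq2 1.42.0, sva 3.50.0, other filters and scalings, covariates, a replicate block and left-out animals. The workflow was tested on simulated data. Floors cover counting error only.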

Additional observations from a re-analysis of the deposited data

Results flagged for a closer look

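Within groups of 4 or 5 livers, an animal was listed when its gap to the nearest other was large against the group's range (Dixon's 95% criterion). This marked 27 of 252 groups examined, where chance alone marks about 1 in 20. WT replicate 2 at 6 weeks stood apart for the mitochondrial members, with a sum of 259292 CPM. It was also marked for the mitochondrial sums of complex I (220503 CPM), complex IV (7201 CPM) and complex V (44.9 CPM). These sums are not compared with each other, because reads of genes with identical copies may be missing. Single mitochondrial genes of this liver were marked as well: mt-Nd1 at 33735, mt-Nd2 at 98698, mt-Nd4 at 80872, mt-Nd5 at 7134 and mt-Co1 at 7125 CPM. The same liver was low for Ndufb3, at 24.1 CPM.

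Other livers stood apart in fewer sets. PiZ/Chop-/- replicate 5 at 36 weeks was high for the mitochondrial sum (90602 CPM) and its complex I part (79366 CPM). PiZ replicate 4 at 36 weeks was high for all nuclear members (17351 CPM), for complex IV subunits (3804 CPM) and for Uqcrc2 (194 CPM). In WT at 36 weeks, replicate 2 was low for complex II subunits (838 CPM) and high for Cox7a1 (7.38 CPM), replicate 4 was high for complex III subunits (3033 CPM), and replicate 3 was high for Cox6a2 (3.81 CPM) and Cox8b (0.846 CPM). At 6 weeks, PiZ/Chop-/- replicate 2 was high for complex II assembly factors (67.7 CPM) and replicate 3 for Ndufa3 (241 CPM), and PiZ replicate 5 was high for Ndufa4 (76.5 CPM) and PiZ replicate 2 for Cox8b (0.359 CPM, a single read). At 36 weeks, PiZ/Chop-/- replicate 1 was low for Uqcrc2 (138 CPM) and replicate 3 high for Cox6a2 (33.3 CPM), and PiZ replicate 3 was low for Cox7b (107 CPM).

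The effect of Chop deletion on Cox6c differed between the ages by the interaction test, by -0.70 on the log2 scale, from higher at 6 weeks to a value below 0 at 36 weeks that was not called itself. The call held in 11 of 30 settings and was lost with the muscle and with the clock covariate. Cox6c is also among the genes whose levels are uncertain because of an identical copy.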

How the results depend on the processing

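Counts of called members, 19 of 103 for PiZ against WT at 6 weeks, 0 at 36 weeks, 9 and 0 for PiZ/Chop-/- against PiZ, 14 and 8 for PiZ/Chop-/- against WT, 3, 0 and 4 for age in WT, PiZ and PiZ/Chop-/-, and 0 and 1 for the differences between ages, changed as follows, in that order of comparisons. DESeq2 gave 2 for PiZ against WT at 36 weeks, 24 and 18 for PiZ/Chop-/- against WT, 5, 2 and 11 for age, and 3 for the second difference. Without the low-count filter there were 5 for PiZ/Chop-/- against PiZ at 6 weeks, 1 for PiZ/Chop-/- against WT at 36 weeks, 1 for age in PiZ/Chop-/-, and 0 for the second difference. Fits of only the groups compared gave 5 and 10 for PiZ against WT, 25 for PiZ/Chop-/- against PiZ at 6 weeks, 2 for PiZ/Chop-/- against WT at 6 weeks, 0, 3 and 7 for age, and 4 for the second difference. The muscle covariate gave 5 for PiZ against WT at 6 weeks, 4 for PiZ/Chop-/- against WT at 6 weeks, 1 for age in WT, 1 for age in PiZ/Chop-/-, and 0 for the second difference. The clock covariate gave 1 for PiZ/Chop-/- against PiZ at 6 weeks, 2 and 3 for PiZ/Chop-/- against WT, 2 for age in PiZ/Chop-/-, and 0 for the second difference. With 1 surrogate variable there were 9 for PiZ against WT at 36 weeks, 23 for PiZ/Chop-/- against PiZ at 6 weeks, 5 and 24 for PiZ/Chop-/- against WT, and 1 and 11 for age in PiZ and PiZ/Chop-/-. Without WT 6-week replicates 1 and 2 the counts were 10 for PiZ against WT at 6 weeks, 7 for PiZ/Chop-/- against WT at 6 weeks and 1 for age in WT, and without replicates 2 and 5, chosen after seeing the data, 4 for PiZ/Chop-/- against WT at 6 weeks. DESeq2 size factors in edgeR and a mean CPM of at least 5 kept every count within 1.5 times. Leaving out each animal gave 14 to 21 and 0 to 0 for PiZ against WT, 1 to 13 and 0 to 0 for PiZ/Chop-/- against PiZ, 8 to 27 and 1 to 10 for PiZ/Chop-/- against WT, 0 to 6, 0 to 0 and 0 to 6 for age, and 0 to 1 for each difference. For PiZ against WT at 6 weeks the totals hide which members were called. Without WT replicate 2, 14 nuclear and 0 mitochondrial members were called lower, against 8 and 8 with it. Without WT replicates 2 and 5 these numbers were 20 and 0. For most of these settings the share of all genes called is not given beside the count. A change in a count is therefore not a result about the members alone. The causes of these changes in counts were not tested.

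The replicate block gave 16 for PiZ against WT at 6 weeks, 5 for PiZ/Chop-/- against PiZ at 6 weeks, 12 and 1 for PiZ/Chop-/- against WT, 2 and 1 for age in WT and PiZ/Chop-/-, and 0 for the second difference. The samples share only a number: deviations of same-numbered animals had a mean correlation of 0.0077, against -0.0017 for other pairs, and 4 of 29 animals correlated best with one of their own number.

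Single called genes kept direction and call in 776 of 1218 values and direction alone in 439. The 3 reversals were of Cox6a2: 1.30 in PiZ against WT at 6 weeks with the muscle covariate, and 0.40 with it and 0.50 without WT 6-week replicates 1 and 2 in PiZ/Chop-/- against WT at 6 weeks. Depth limits mt-Nd3, mt-Co2, mt-Co3, mt-Atp6 and members near 3 counts.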

Other observations

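Related mitochondrial lists held further calls at 6 weeks by edgeR. Their counts are small, and the shares of all genes called at that age were 12.4% higher and 13.3% lower in PiZ against WT and 3.9% and 2.89% in PiZ/Chop-/- against PiZ. Of 13 citric acid cycle genes, PiZ against WT gave 2 calls upward and 2 downward, close to those shares, so the single genes are given as values and not as a feature of the list. Cs, citrate synthase, was at 79.6 ± 14.4 CPM in PiZ and 54.8 ± 5.75 CPM in WT (SD, n = 5 each, log2 0.54, SE 0.14), and Fh1, fumarase, at 51.6 ± 23.9 and 103 ± 15.1 CPM (log2 -0.99, SE 0.29). In PiZ/Chop-/- against PiZ, Idh3b was called higher (log2 0.77, SE 0.16) and Idh3a lower (log2 -1.06, SE 0.28), although both encode subunits of 1 enzyme, isocitrate dehydrogenase. Of 7 carriers and channels, the uncoupling protein Ucp2 was higher in PiZ (log2 1.66, SE 0.25) and the nucleotide carrier Slc25a4 lower (13.8 ± 4.41 CPM in PiZ and 65.9 ± 68.8 CPM in WT, log2 -2.24, SE 0.55). Slc25a4 was at 147 and 135 CPM in WT replicates 1 and 2, the livers with 4860 and 5676 CPM of skeletal muscle markers, and at 12.3, 13.3 and 21.99 CPM in the other WT livers, of which only the last lay above the PiZ range of 6.11 to 17.2 CPM. The next highest of all 29 livers, at 41.9 CPM, was PiZ/Chop-/- replicate 3 at 36 weeks, with 1552 CPM of muscle markers. Lyrm7, 1 of 6 complex III assembly factors, was higher (log2 1.22, SE 0.36), and Tmem126b, 1 of 8 complex I assembly factors outside the symbol prefixes, lower (log2 -0.52, SE 0.20). Among mitochondrial ribosomal proteins Mrps31 was lower (log2 -1.11, SE 0.20) and Mrpl57 higher (log2 0.94, SE 0.23).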
